A study of Homo sapiens with 9 samples.

Results

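Caveolae are small flask-shaped pits of the plasma membrane, and the 10 genes described here encode the proteins that build them together with the flotillins, which organise a separate kind of membrane microdomain. The genes were taken by symbol: the caveolins CAV1 and CAV2, the cavins PTRF (now CAVIN1), SDPR (CAVIN2) and PRKCDBP (CAVIN3), the caveola-neck ATPase EHD2, the membrane-bending F-BAR proteins PACSIN2 and PACSIN3, and the flotillins FLOT1 and FLOT2. All 10 were found among the 58219 genes of the files, and all 10 were among the 15233 genes with enough reads to be tested. They were measured by RNA sequencing in MDA-MB-231, a human breast cancer cell line of the triple-negative class, a class that clinical tests score as negative for the estrogen, progesterone and HER2 receptors. The 3 groups, of 3 libraries each, were shAPT1 cells (stable lentiviral short hairpin knockdown of APT1, selected with puromycin), APT1wt cells (stable lentiviral overexpression of wild-type APT1) and control cells (lentivirus with a scrambled control RNA). The labels describe puromycin selection for the knockdown only, name no overexpression vector without APT1, and do not say how many hairpins were used or whether replicate libraries stem from separate cultures. The p-values therefore measure the spread between these libraries, which may be technical.

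Caveolins are hairpin proteins that insert into the inner leaflet of the membrane and oligomerise, and cavins assemble around them as a coat from the cytosol. Loss of CAV1 or PTRF abolishes caveolae in most cell types, whereas CAV2, SDPR and PRKCDBP modify their number, size or trafficking. Caveolins and flotillins are both palmitoylated, and APT1 (gene LYPLA1) is an acyl-protein thioesterase that removes palmitate from proteins. The RNA levels given here say nothing of palmitoylation or of the number of caveolae.

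Sequencing depth was 12381931 to 18667383 estimated reads per library. LYPLA1 averaged 35.1 ± 4.1 TPM in shAPT1 cells and 170 ± 1.00 TPM in APT1wt cells, against 86.8 ± 6.1 TPM in control cells (SD, n = 3 each), in the direction of the labels. On read counts, edgeR put LYPLA1 at 0.410 times control in shAPT1 cells and 1.52 times control in APT1wt cells. The rise in APT1wt cells was thus smaller on counts than in TPM. TPM is each transcript's share of all transcripts on a fixed total, corrected for transcript length, so that levels can be compared between genes. The library shAPT1 replicate 1 stood apart from its group: the chi-square statistic per gene between libraries was 12.3 and 18.3 for its pairs with shAPT1 replicates 2 and 3, against 7.39 for replicates 2 and 3. It was 2.1 to 8.49 between control libraries and 2.48 to 6.46 between APT1wt libraries. Where a call or a direction of a caveola or flotillin gene described here turns on shAPT1 replicate 1, the value without it is given. For genes of the other lists no such value is given. VIM and CD44, which mark the mesenchymal state of this line, were abundant at 1801 to 2373 TPM and 659 to 923 TPM, and the receptor genes ESR1 and PGR reached at most 0.219 TPM and 0.0565 TPM. ERBB2, the gene of HER2, was at 27.5 to 37.3 TPM. Epithelial genes were detected too: CLDN4 at 32.9 to 67.5 TPM, EPCAM at 7.42 to 10.9 TPM and CLDN7 at 4.50 to 8.32 TPM. CDH1 and CLDN3 reached at most 2.76 and 2.33 TPM. CD44 was lower in shAPT1 than in control cells (log2 fold change -0.66, edgeR, adjusted p = 2.7e-05). VIM was lower in APT1wt than in control cells (log2 fold change -0.25, edgeR, adjusted p = 0.0082).

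In shAPT1 cells 6 of the 10 genes were higher than in control cells, namely CAV1, CAV2, SDPR, PACSIN2, FLOT1 and FLOT2, and 0 were lower. In APT1wt cells 3 were higher than in control cells, namely CAV1, CAV2 and PACSIN2, and 0 were lower. Directly between shAPT1 and APT1wt cells, CAV2, SDPR, FLOT1 and FLOT2 were higher in shAPT1 cells and PACSIN3 was lower. SDPR moved furthest, at 3.35 times its control level in shAPT1 cells. CAV1, at 374 TPM in control cells, was the most abundant of the 10 in every group.

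Calls rest on edgeR's quasi-likelihood test at a Benjamini-Hochberg adjusted p of 0.05 over all genes tested. By that rule 24.4% of all genes differed between shAPT1 and control cells (12.8% higher and 11.6% lower). Between APT1wt and control cells 23.4% differed (11.8% higher and 11.6% lower). Between shAPT1 and APT1wt cells 25.1% differed (12.7% higher and 12.4% lower). With 11.6% of all genes lower, a count of 0 lower among 10 genes is close to the share over all genes. The counts of 0 lower genes against control were also 0 at an unadjusted p of 0.05, with DESeq2 and with limma-voom. DESeq2 called 7 genes higher in shAPT1 and 4 in APT1wt cells, and limma-voom 6 and 3. Without shAPT1 replicate 1 the count in APT1wt against control was 5, as PTRF and PACSIN3 were then called, and without shAPT1 replicate 2 the count in shAPT1 against APT1wt was 3, as FLOT1 and FLOT2 were not. The median log2 fold change of the 10 genes was 0.36 for shAPT1 against control, 0.15 for APT1wt against control and 0.13 for shAPT1 against APT1wt. The same median over all genes tested was -0.0039, -0.0040 and 0.0012. TPM values did not overlap between groups for 7, 6 and 5 of the 10 genes in these comparisons, against 31.1%, 35.0% and 32.9% of all genes. Both comparisons with control use the same 3 control libraries. In bulk RNA, a change in the share of cells that express a gene and a change in RNA per cell cannot be told apart.

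**Figure D1:**
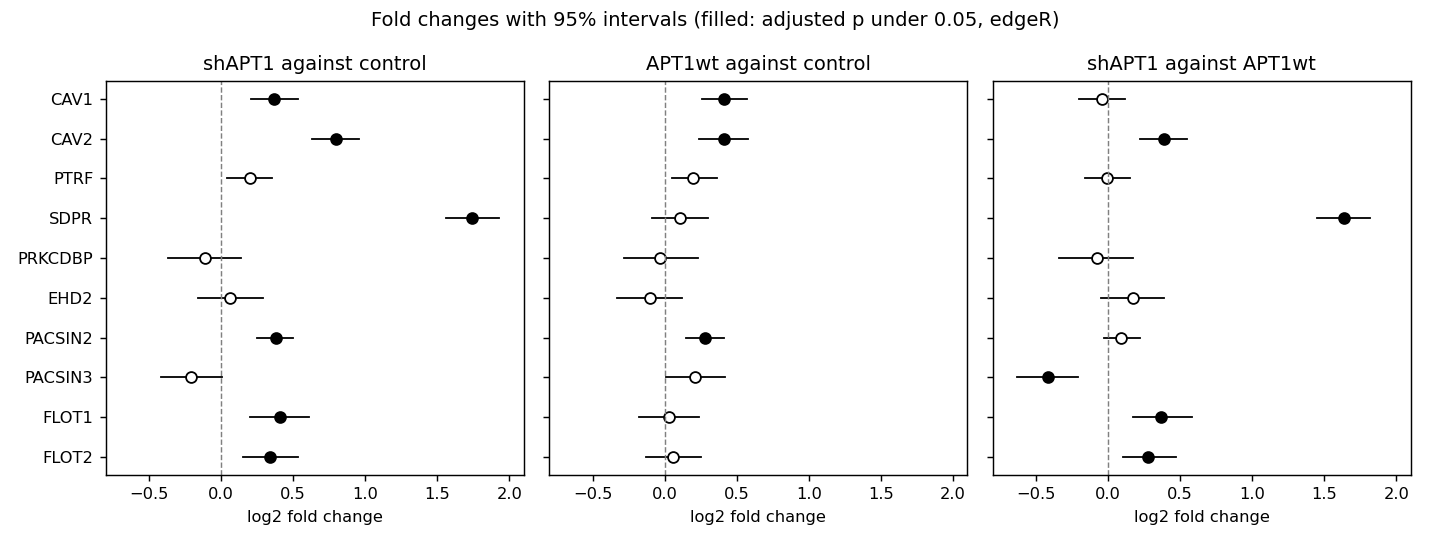
Log2 fold changes from edgeR of the 10 genes, from caveolins at the top to flotillins at the bottom, in the 3 comparisons; points are estimates, bars are 95% intervals and filled points have an adjusted p under 0.05. SDPR stands at 1.74 in shAPT1 against control cells and at 0.11 in APT1wt against control cells, while CAV1 stands at 0.37 and 0.41.

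CAV1, the caveolin without which caveolae do not form, is encoded on chromosome 7 (GRCh38, chr7:116524785-116561184, plus strand, ENSG00000105974.11). It measured 441, 514 and 522 TPM in the shAPT1 libraries, 429, 525 and 543 TPM in the APT1wt libraries, and 340, 400 and 383 TPM in the control libraries. Every shAPT1 and APT1wt library lay above every control library, and shAPT1 and APT1wt libraries overlapped. The log2 fold change was 0.37 ± 0.07 for shAPT1 against control (± SE from edgeR here and below; adjusted p = 0.0021) and 0.41 ± 0.07 for APT1wt against control (adjusted p = 0.0010). Between shAPT1 and APT1wt cells it was -0.04, with a 95% interval of -0.20 to 0.12 (edgeR, adjusted p = 0.73). CAV1 was thus higher than control in both cell lines with altered APT1, and a difference between them was not detected within that interval.

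CAV2, which forms hetero-oligomers with CAV1 and needs it to leave the Golgi, lies beside it (chr7:116287380-116508541, plus strand, ENSG00000105971.14), with 16244 bases between the end of CAV2 and the start of CAV1. CAV2 measured 178, 173 and 175 TPM in the shAPT1 libraries, 112, 131 and 124 TPM in the APT1wt libraries, and 89.5, 106 and 98.3 TPM in the control libraries. The 3 groups formed 3 levels without overlap, highest in shAPT1 cells and lowest in control cells. Its log2 fold change was 0.80 ± 0.08 in shAPT1 cells (1.74-fold; edgeR, adjusted p = 6.4e-06) and 0.41 ± 0.08 in APT1wt cells (1.33-fold; adjusted p = 0.0019), each against control. The difference between shAPT1 and APT1wt was itself called, at 0.39 ± 0.08 (edgeR, adjusted p = 0.0023). CAV2 per CAV1 was 0.359 ± 0.038 in shAPT1 cells and 0.247 ± 0.017 in APT1wt cells, against 0.262 ± 0.0046 in control cells (SD, n = 3 each). This ratio was higher in every shAPT1 library than in any other library, and shAPT1 replicate 1 had the highest, at 0.403, against 0.338 and 0.336 in shAPT1 replicates 2 and 3.

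**Figure D2:**
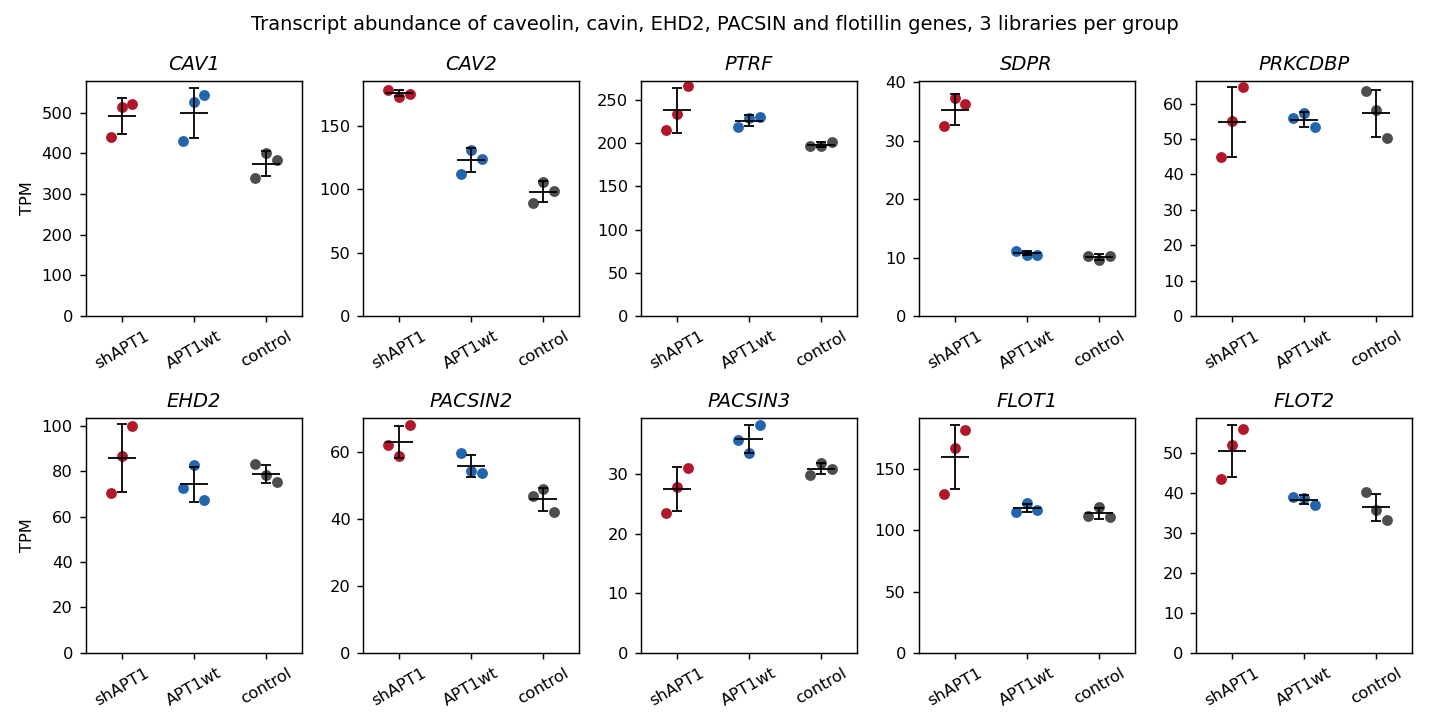
Level in TPM of each of the 10 genes in every library, by group, with axes that start at 0; points are libraries in replicate order, and the horizontal mark and bar are the mean and SD of 3 libraries. CAV2 and SDPR form separate levels in shAPT1 cells (176 and 35.3 TPM, against 98.0 and 10.1 TPM in control cells), and PRKCDBP and EHD2 overlap between all groups.

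None of the 4 chromosome 7 neighbours of the caveolin genes was called higher than in control cells. Of all genes, 12.8% were higher in shAPT1 and 11.8% in APT1wt cells, so 0 of 4 is close to those shares. The nearest tested protein-coding genes on the CAV2 side are MDFIC, an inhibitor of MyoD-family factors, and TES, which encodes testin. MDFIC fell by 0.34 ± 0.09 on the log2 scale in shAPT1 cells and by the same amount in APT1wt cells (edgeR, adjusted p = 0.015 in both), and TES had log2 fold changes of 0.11 (adjusted p = 0.23) and -0.12 (adjusted p = 0.20). On the CAV1 side are MET, the hepatocyte growth factor receptor, and CAPZA2, an actin capping protein subunit. MET had a log2 fold change of 0.0037 in shAPT1 cells (edgeR, adjusted p = 0.98) and -0.20 in APT1wt cells (adjusted p = 0.087), and CAPZA2 had -0.20 (adjusted p = 0.058) and fell by 0.27 ± 0.07 (adjusted p = 0.013). Directly between shAPT1 and APT1wt cells, TES was called higher in shAPT1 cells, at 0.24 ± 0.06 (edgeR, adjusted p = 0.016). MET had 0.21 ± 0.08 (adjusted p = 0.077), CAPZA2 0.07 (adjusted p = 0.49) and MDFIC 0.0009 in that comparison. Over the 50 tested genes on each side, the median shift at CAV1 and CAV2 was -0.13 in shAPT1 cells and -0.27 in APT1wt cells. With that regional shift taken off, the log2 fold changes against control were 0.51 for CAV1 and 0.93 for CAV2 in shAPT1 cells (edgeR, adjusted p = 6.4e-04 and 1.8e-06), and 0.68 for each in APT1wt cells (adjusted p = 8.0e-05 for CAV1 and 4.7e-05 for CAV2). The same correction lowered the difference in CAV2 between shAPT1 and APT1wt cells from 0.39 to 0.25 (adjusted p = 0.029) and gave -0.18 for CAV1 (adjusted p = 0.15). CAV2 overlaps the antisense genes AC002066.1 and AC073130.3, at mean levels of 4.44 and 4.03 TPM over all libraries. Whether the libraries keep strand is not given in the sources used here, so reads of CAV2 and of these genes may not be separable where they overlap.

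**Figure D3:**
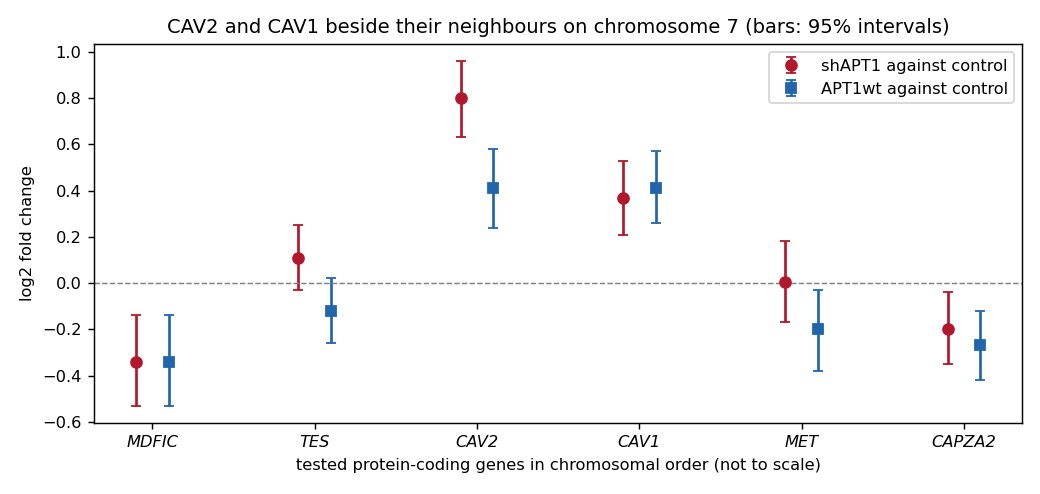
Log2 fold changes from edgeR against control of CAV2, CAV1 and the nearest tested protein-coding genes on either side, in chromosomal order and not to scale; circles are shAPT1, squares are APT1wt and bars are 95% intervals. CAV2 and CAV1 lie between 0.37 and 0.80, and the 4 neighbours between -0.34 and 0.11.

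Promoter windows of the caveolins and of SDPR are shown because SDPR and CAV2 had the highest fold changes of the 10 genes in shAPT1 cells. CAV1 is included as the neighbour of CAV2 and because it has upstream and downstream starts. The window of the last RefSeq start of CAV1 lies 3′ of 116525740, the start of the main downstream transcript, and so within that transcript's span. The CAV2 window likewise lies 3′ of 116499390, where ENST00000222693.4 starts. Each window is the 250 bases before a RefSeq start (GRCh38.p14, given 5′ to 3′ on the gene's strand). RefSeq promoters were matched for 7 of the 10 genes, in 15 windows; PTRF, PRKCDBP and PACSIN3 are named only. Capitals mark matches on either strand to any of 4 motifs. The box bound by SP family factors was searched as GGGCGG. The core site of TEAD factors was searched as GGAATG. The site of AP-1 factors was searched as TGANTCA, which reads the same on both strands. The box of the core promoter named for it was searched as TATAAA. Of 35116 RefSeq windows of this length, 42.6% hold the SP site, 11.9% the TEAD core, 6.57% the AP-1 site and 10.7% the core promoter box.
CAV1, RefSeq start at 116525009, chr7:116524759-116525008, plus strand: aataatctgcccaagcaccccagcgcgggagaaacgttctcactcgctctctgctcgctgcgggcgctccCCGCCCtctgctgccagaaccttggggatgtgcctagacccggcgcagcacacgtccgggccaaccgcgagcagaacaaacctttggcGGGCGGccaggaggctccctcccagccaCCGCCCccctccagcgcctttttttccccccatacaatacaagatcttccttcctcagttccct
CAV1, RefSeq start at 116526362, chr7:116526112-116526361, plus strand: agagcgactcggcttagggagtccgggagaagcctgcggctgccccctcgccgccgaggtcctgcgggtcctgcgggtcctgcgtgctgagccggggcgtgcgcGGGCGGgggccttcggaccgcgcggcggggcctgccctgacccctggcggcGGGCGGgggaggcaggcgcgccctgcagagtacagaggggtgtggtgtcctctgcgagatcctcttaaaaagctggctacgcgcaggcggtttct
CAV2, chr7:116499488-116499737, plus strand: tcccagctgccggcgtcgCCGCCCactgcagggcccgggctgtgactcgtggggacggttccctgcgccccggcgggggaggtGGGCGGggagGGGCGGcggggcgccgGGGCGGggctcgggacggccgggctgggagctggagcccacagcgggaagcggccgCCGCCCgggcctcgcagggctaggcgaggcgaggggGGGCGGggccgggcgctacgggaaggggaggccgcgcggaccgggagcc
SDPR, chr2:191847089-191847338, minus strand: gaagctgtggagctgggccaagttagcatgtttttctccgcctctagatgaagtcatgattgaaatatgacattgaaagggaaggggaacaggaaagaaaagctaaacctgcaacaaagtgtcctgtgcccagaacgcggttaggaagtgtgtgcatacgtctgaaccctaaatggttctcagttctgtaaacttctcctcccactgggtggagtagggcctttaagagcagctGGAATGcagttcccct

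The windows of the caveolins were rich in G and C and that of SDPR was not. GC content was 63.6% in the upstream CAV1 window, 73.2% in the other CAV1 window, 83.2% before CAV2 and 48.0% before SDPR, against a median of 58.0% over all windows. The CAV2 window shown stood at the percentile 99.0 of GC content. It held 6 SP sites, and the CAV1 windows shown held 3 and 2. A further CAV2 window, not shown, had 70.0% GC (percentile 79.2) and 3 SP sites. A further CAV1 window, also not shown, had 63.2% GC and 3 SP sites. The SDPR window held no SP site and 1 TEAD core, 16 bases before the RefSeq start, which lies 167 bases inside the annotated GENCODE start. None of the 4 windows shown held the AP-1 letters or those of the core promoter box. These are matches of letters in a window and say nothing of whether a factor binds there.

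At the transcript level the reads of CAV1 came mainly from transcripts with the downstream start. Of 82 annotated transcripts of the 10 genes, 47 had a mean of at least 1 TPM in a group and 37 could be tested. The 4 CAV1 transcripts that start between 116525740 and 116526293 summed to 389 ± 30 TPM in shAPT1 cells and 398 ± 52 TPM in APT1wt cells, against 293 ± 27 TPM in control cells (SD, n = 3 each). The 5 that start between 116524785 and 116525012 summed to 103 ± 15 TPM in shAPT1 cells and 101 ± 9.6 TPM in APT1wt cells, against 81.5 ± 4.9 TPM in control cells. The upstream share was 20.9% ± 1.3 in shAPT1 cells and 20.3% ± 0.88 in APT1wt cells, against 21.8% ± 0.89 in control cells. Every shAPT1 and APT1wt library was above every control library in the downstream sum, and every APT1wt library also in the upstream sum. The upstream sum overlapped between shAPT1 and control libraries through shAPT1 replicate 1, at 86.4 TPM against 86.9 TPM in control replicate 2. In shAPT1 replicates 2 and 3 it was 107 and 115 TPM, above all control libraries. The upstream set includes ENST00000341049.6 (CAV1-001), whose coding sequence of 534 bases is the full-length alpha form. The main downstream transcript, ENST00000405348.5 (CAV1-008), has a coding sequence of 441 bases, the shorter beta form.

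ENST00000405348.5 alone made up 56.7% of CAV1 TPM in shAPT1 cells and 54.7% in APT1wt cells, against 51.8% in control cells. It measured 300, 280 and 256 TPM in the shAPT1 libraries, 261, 288 and 269 TPM in the APT1wt libraries, and 164, 199 and 218 TPM in the control libraries. All shAPT1 and APT1wt libraries lay above all control libraries, but adjusted over transcripts the p missed the threshold (edgeR, log2 fold change 0.47 ± 0.10, adjusted p = 0.058 in shAPT1 cells, and 0.50 ± 0.10, adjusted p = 0.051 in APT1wt cells). The short CAV1 transcript ENST00000456473.5 (CAV1-007) was listed at 0 in shAPT1 replicate 1 and reached 82.0 TPM in APT1wt replicate 3. Salmon shares reads among transcripts with common sequence, and the spread used here does not include the uncertainty of that sharing.

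Transcript calls were fewer than gene calls. Against control, 4 transcripts of the 10 genes were called in shAPT1 cells, all higher, and 0 in APT1wt cells, against 1.62% and 1.43% of all 52392 transcripts tested. At an unadjusted p of 0.05 the edgeR count in APT1wt cells was 6 higher and 0 lower. No other tool was run on transcripts. The 4 in shAPT1 cells were 2 of CAV2, 1 of PACSIN2 and the single transcript of SDPR. The full-length CAV2 transcript ENST00000222693.4 (CAV2-001) averaged 71.6 ± 1.3 TPM in shAPT1 cells and 53.1 ± 6.4 TPM in APT1wt cells, against 39.1 ± 5.5 TPM in control cells, with a log2 fold change of 0.83 ± 0.11 for shAPT1 against control (edgeR, adjusted p = 0.014). ENST00000343213.2 (CAV2-019), with a shorter coding sequence of 336 bases against 486, averaged 45.0 ± 4.0 TPM in shAPT1 cells and 28.0 ± 1.8 TPM in APT1wt cells, against 23.5 ± 3.9 TPM in control cells (shAPT1 against control 0.88 ± 0.15, adjusted p = 0.029). The long and the short CAV2 transcript therefore both rose in shAPT1 cells. The count of 4 was 2 without the filter on low counts, 2 without APT1wt replicate 2 or 3, and 1 without shAPT1 replicate 2, control replicate 2 or control replicate 3. Between shAPT1 and APT1wt cells the transcript of SDPR alone was called, against 1.30% of all transcripts, and without shAPT1 replicate 1 the count was 2.

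**Figure D4:**
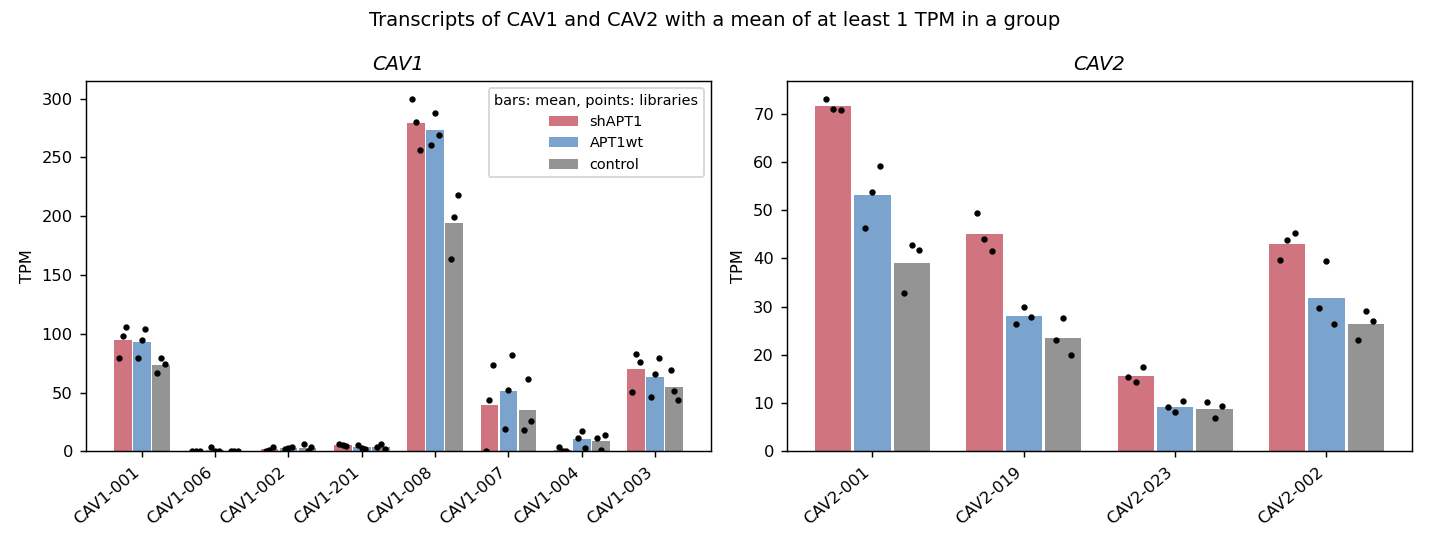
Level in TPM of CAV1 and CAV2 transcripts with a mean of at least 1 TPM in a group; bars are group means (shAPT1, APT1wt, control from left to right) and points are libraries. CAV1-008 is the tallest at 279, 273 and 194 TPM, and all 4 CAV2 transcripts are highest in shAPT1 cells.

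Among the cavins, SDPR was called in shAPT1 cells, and PTRF and PRKCDBP were called in no comparison. SDPR (CAVIN2, which bends membranes and recruits PTRF to caveolae) lies at chr2:191834302-191847255 on the minus strand (ENSG00000168497.4). It measured 32.4, 37.2 and 36.3 TPM in the shAPT1 libraries, 11.1, 10.5 and 10.5 TPM in the APT1wt libraries, and 10.3, 9.55 and 10.3 TPM in the control libraries. The lowest shAPT1 library was far above the highest library of the other groups, which lay close together. SDPR had a log2 fold change of 1.74 ± 0.09 against control (95% interval 1.56 to 1.93; edgeR, adjusted p = 1.1e-08) and 1.64 ± 0.09 against APT1wt (adjusted p = 1.4e-08). In APT1wt cells it was 0.11 ± 0.09 against control (adjusted p = 0.46), with an interval of -0.09 to 0.30.

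PTRF (CAVIN1, the cavin on which the coat depends; chr17:42402452-42423517, minus strand, ENSG00000177469.12) was close to the threshold in both comparisons with control. It measured 215, 233 and 266 TPM in the shAPT1 libraries, 219, 229 and 230 TPM in the APT1wt libraries, and 197, 196 and 201 TPM in the control libraries. All shAPT1 and APT1wt libraries lay above all control libraries in TPM. PTRF had a log2 fold change of 0.20 ± 0.07 in shAPT1 cells (edgeR, adjusted p = 0.063) and 0.20 ± 0.07 in APT1wt cells (adjusted p = 0.057), each against control. DESeq2 placed both past the threshold (adjusted p = 0.038 and 0.031), and so did the edgeR fit without shAPT1 replicate 1 (adjusted p = 0.0021 for shAPT1 and 0.0072 for APT1wt). Without shAPT1 replicate 3 the APT1wt value was also past it (adjusted p = 0.030), but the shAPT1 value was 0.13 (adjusted p = 0.19). Scaling by library totals moved them apart, to 0.22 in shAPT1 cells (adjusted p = 0.036) and 0.17 in APT1wt cells (adjusted p = 0.11). Between shAPT1 and APT1wt cells the log2 fold change was -0.01, with an interval of -0.16 to 0.15 (edgeR, adjusted p = 0.96).

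PRKCDBP (CAVIN3, which links caveolae to protein kinase C delta; chr11:6318946-6320647, minus strand, ENSG00000170955.9) measured 45.0, 55.1 and 64.8 TPM in the shAPT1 libraries, 55.9, 57.3 and 53.4 TPM in the APT1wt libraries, and 63.5, 58.1 and 50.3 TPM in the control libraries. The 3 groups overlapped. Its log2 fold change was -0.11 ± 0.12 in shAPT1 cells (95% interval -0.37 to 0.14; edgeR, adjusted p = 0.55) and -0.03 ± 0.12 in APT1wt cells (-0.28 to 0.23; adjusted p = 0.90), each against control. Without shAPT1 replicate 1, its lowest library, the value in shAPT1 cells was 0.02 (adjusted p = 0.91).

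The ratio of SDPR to PTRF shows how the cavin messages differed between groups. It was 0.149 ± 0.012 in shAPT1 cells and 0.0475 ± 0.0028 in APT1wt cells, against 0.0508 ± 0.0020 in control cells (SD, n = 3 each). PRKCDBP per PTRF was 0.230 ± 0.018 in shAPT1 cells and 0.246 ± 0.012 in APT1wt cells, against 0.289 ± 0.037 in control cells. PTRF per CAV1 was 0.484 ± 0.028 in shAPT1 cells and 0.457 ± 0.047 in APT1wt cells, against 0.531 ± 0.045 in control cells, and overlapped between all groups. PRKCDBP per PTRF was lower in all shAPT1 libraries than in any control library, 0.209 to 0.244 against 0.250 to 0.323. An exact two-sided permutation test of 3 against 3 libraries cannot give a p below 0.100, so no ratio could pass 0.05.

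**Figure D5:**
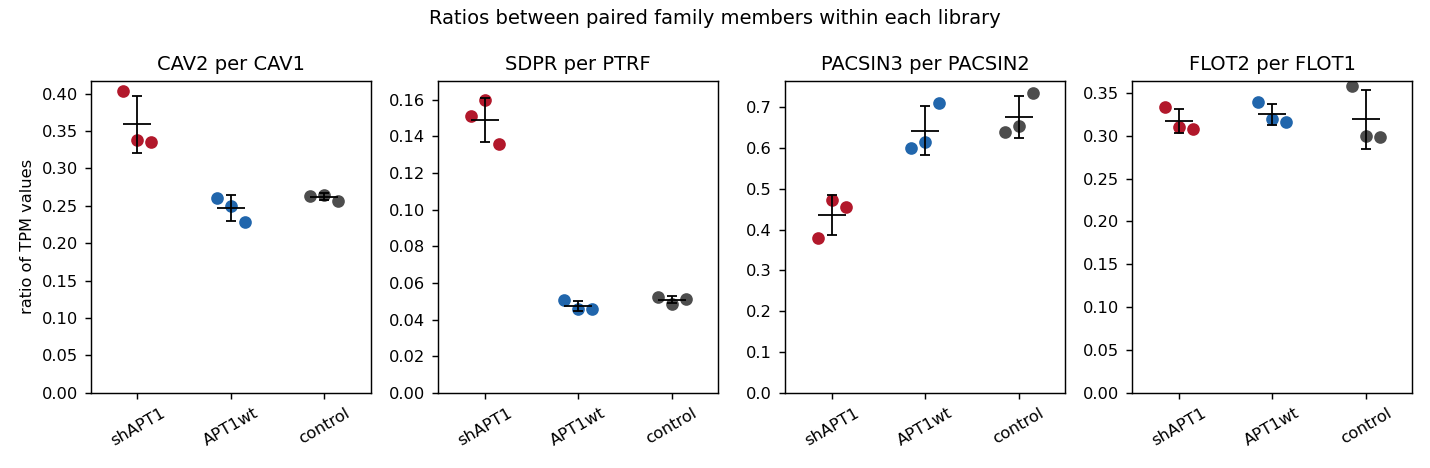
Ratios of TPM values within each library for pairs of related genes, with axes that start at 0; points are libraries, and the mark and bar are the mean and SD of 3 libraries. CAV2 per CAV1 and SDPR per PTRF are higher and PACSIN3 per PACSIN2 is lower in shAPT1 cells, whereas FLOT2 per FLOT1 is 0.317, 0.325 and 0.319 in shAPT1, APT1wt and control cells.

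Of the proteins at the caveola neck and rim, PACSIN2 was higher in both shAPT1 and APT1wt cells, and EHD2 was called in neither. PACSIN2 (an F-BAR protein that shapes the caveola neck; chr22:42835412-43015145, minus strand, ENSG00000100266.18) measured 62.0, 58.8 and 68.1 TPM in the shAPT1 libraries, 59.7, 54.3 and 53.8 TPM in the APT1wt libraries, and 46.8, 48.8 and 41.9 TPM in the control libraries. All control libraries were the lowest, and shAPT1 and APT1wt libraries overlapped. PACSIN2 had a log2 fold change of 0.38 ± 0.06 in shAPT1 cells (edgeR, adjusted p = 4.4e-04) and 0.28 ± 0.06 in APT1wt cells (adjusted p = 0.0038), each against control. With the shift of neighbouring genes on chromosome 22 taken off, the APT1wt value was 0.19 (adjusted p = 0.053), and shAPT1 against APT1wt became 0.29 (adjusted p = 0.0041) in place of 0.09 (adjusted p = 0.28). Its main transcript ENST00000263246.7 rose by 0.37 ± 0.06 in shAPT1 cells on the log2 scale (edgeR, adjusted p = 0.021). PACSIN2 overlaps ARFGAP3 on the same strand, at a mean of 27.1 TPM.

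PACSIN3, the muscle-enriched relative of PACSIN2, lies at chr11:47177525-47186443 on the minus strand (ENSG00000165912.15). It measured 23.5, 27.8 and 31.0 TPM in the shAPT1 libraries, 35.8, 33.5 and 38.2 TPM in the APT1wt libraries, and 29.9, 31.8 and 30.8 TPM in the control libraries. All APT1wt libraries were the highest, and shAPT1 and control libraries overlapped. Between shAPT1 and APT1wt cells the log2 fold change was -0.42 ± 0.10 (edgeR, adjusted p = 0.0056). Against control it was -0.21 ± 0.10 in shAPT1 cells (adjusted p = 0.14) and 0.21 ± 0.10 in APT1wt cells (adjusted p = 0.13), of opposite sign and past the threshold in neither. In shAPT1 cells the value was -0.30 without shAPT1 replicate 3 (adjusted p = 0.035) and -0.10 without shAPT1 replicate 1 (adjusted p = 0.37). In APT1wt cells it was 0.21 without shAPT1 replicate 1, with an adjusted p of 0.029. PACSIN3 per PACSIN2 was 0.436 ± 0.050 in shAPT1 cells and 0.643 ± 0.060 in APT1wt cells, against 0.676 ± 0.052 in control cells (SD, n = 3 each), and was lower in every shAPT1 library than in any other. PACSIN3 is the only one of the 10 genes that was called lower in any comparison, and in that comparison 12.4% of all genes were lower.

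EHD2, the ATPase that anchors caveolae at the surface (chr19:47713343-47743134, plus strand, ENSG00000024422.11), measured 70.3, 86.9 and 100 TPM in the shAPT1 libraries, 72.8, 82.6 and 67.3 TPM in the APT1wt libraries, and 83.1, 78.4 and 75.3 TPM in the control libraries. The 3 groups overlapped, and the shAPT1 libraries were spread most. Its log2 fold change was 0.06 ± 0.10 in shAPT1 cells (95% interval -0.16 to 0.29; edgeR, adjusted p = 0.71) and -0.10 ± 0.10 in APT1wt cells (-0.33 to 0.12; adjusted p = 0.52), each against control. EHD2 depended on which shAPT1 library was left out: without replicate 1 it was 0.20 against control (adjusted p = 0.039) and 0.31 against APT1wt (adjusted p = 0.0036), and without replicate 3 it was -0.03 against control (adjusted p = 0.89).

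Both flotillins were higher in shAPT1 cells than in control and APT1wt cells. FLOT1, the first of the pair (chr6:30727709-30742733, minus strand, ENSG00000137312.14), forms hetero-oligomers with FLOT2 that mark flat microdomains and an endocytic route without clathrin. FLOT1 measured 130, 167 and 182 TPM in the shAPT1 libraries, 115, 122 and 117 TPM in the APT1wt libraries, and 112, 119 and 111 TPM in the control libraries. Every shAPT1 library lay above all others, with replicate 1 the lowest of the 3. The log2 fold change of FLOT1 was 0.41 ± 0.10 against control (edgeR, adjusted p = 0.0068) and 0.37 ± 0.10 against APT1wt (adjusted p = 0.010). Without shAPT1 replicate 2 the value against APT1wt was 0.31 (adjusted p = 0.056).

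FLOT2 (chr17:28879335-28897679, minus strand, ENSG00000132589.15) measured 43.4, 51.9 and 56.0 TPM in the shAPT1 libraries, 39.0, 38.8 and 36.9 TPM in the APT1wt libraries, and 40.1, 35.7 and 33.3 TPM in the control libraries. It too was higher in every shAPT1 library than in any other. It had a log2 fold change of 0.34 ± 0.09 against control (edgeR, adjusted p = 0.011) and 0.28 ± 0.09 against APT1wt (adjusted p = 0.028). Both calls were near the threshold. The call against control was lost without control replicate 2 or control replicate 3 (adjusted p = 0.050 and 0.056), and the call against APT1wt was lost with a transcript length offset (adjusted p = 0.060), in the deposited scaled table (adjusted p = 0.074), and in 5 of the 9 fits that leave out a library (0.058 to 0.100: shAPT1 replicates 2 and 3, and each APT1wt replicate).

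In APT1wt cells neither flotillin was called against control. The log2 fold change of FLOT1 there was 0.03 ± 0.10 (95% interval -0.18 to 0.24; edgeR, adjusted p = 0.86) and that of FLOT2 was 0.06 ± 0.09 (-0.13 to 0.25; adjusted p = 0.67). Scaling by library totals alone put FLOT1 at -0.0012 (adjusted p = 0.99). FLOT2 per FLOT1 was 0.317 ± 0.014 in shAPT1 cells and 0.325 ± 0.012 in APT1wt cells, against 0.319 ± 0.034 in control cells (SD, n = 3 each). The ratio overlapped between all groups, while the ratios within the caveolins, the cavins and the PACSINs did not overlap between shAPT1 and control cells.

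In level, the caveola and flotillin genes ran from CAV1 at the top to SDPR or PACSIN3 at the bottom. In control cells the order by mean TPM was CAV1, PTRF, FLOT1, CAV2, EHD2, PRKCDBP, PACSIN2, FLOT2, PACSIN3 and SDPR, and no neighbouring pair overlapped between libraries. CAV2 passed FLOT1 in mean level in shAPT1 and APT1wt cells, although libraries of these genes overlapped in both groups. SDPR was the lowest of the 10 in APT1wt and control cells, and in shAPT1 cells it stood above PACSIN3 without overlap, at 32.4 TPM or more against 31.0 TPM or less. In shAPT1 cells PACSIN2 and PRKCDBP overlapped, and so did PRKCDBP and FLOT2. In APT1wt cells PACSIN2 and PRKCDBP overlapped, and so did FLOT2 and PACSIN3. The 10 genes together summed to 1241, 1405 and 1501 TPM in the shAPT1 libraries, 1150, 1284 and 1274 TPM in the APT1wt libraries, and 1012, 1084 and 1036 TPM in the control libraries, without overlap of shAPT1 or APT1wt with control.

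No tested relative of the caveola proteins was called higher in shAPT1 or APT1wt cells than in control cells. With 12.8% and 11.8% of all genes higher, a count of 0 among 6 is close to those shares. Of 8 relatives (CAV3, MURC, EHD1, EHD3, EHD4, PACSIN1, NOSTRIN and ROR1), 6 were tested. In shAPT1 cells EHD1 and EHD4, endosomal relatives of EHD2, were lower than in control cells and 0 relatives were higher, also at an unadjusted p of 0.05 in edgeR and with DESeq2 and limma-voom. Of all genes, 11.6% were lower in shAPT1 cells. EHD1 averaged 240 ± 54 TPM in shAPT1 cells and 315 ± 9.4 TPM in APT1wt cells, against 332 ± 28 TPM in control cells (shAPT1 against control -0.58 ± 0.08, edgeR, adjusted p = 1.2e-04). Its shAPT1 libraries measured 178, 268 and 276 TPM, with replicate 1 the lowest, against 313 TPM or more in control libraries. EHD4 averaged 18.3 ± 1.3 TPM in shAPT1 cells and 25.8 ± 1.0 TPM in APT1wt cells, against 24.1 ± 1.1 TPM in control cells (-0.47 ± 0.06; adjusted p = 1.2e-04). In APT1wt cells 0 of the 6 were called against control by edgeR, DESeq2 or limma-voom, and 1 in each direction had an unadjusted edgeR p under 0.05. By edgeR 23.4% of all genes were called there. The median log2 fold change was -0.18 in shAPT1 and 0.03 in APT1wt cells. Directly between shAPT1 and APT1wt cells, 1 relative was higher in shAPT1 cells (EHD3) and 3 were lower (EHD1, EHD4 and ROR1). The shares of all genes were 12.7% and 12.4%.

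Receptors and enzymes known to reside in or be regulated at caveolae moved in both directions. Of 9 tested, 3 were higher and 2 lower in shAPT1 than in control cells, against 12.8% and 11.6% of all genes. The median log2 fold change of the 9 was 0.17. In APT1wt cells 3 were higher and 0 lower than in control cells (median 0.21), against 11.8% and 11.6% of all genes. The count of 0 lower was also 0 at an unadjusted edgeR p of 0.05 and with DESeq2 and limma-voom. TGFBR1, a TGF-beta receptor, averaged 24.8 ± 3.4 TPM in shAPT1 cells and 29.7 ± 2.1 TPM in APT1wt cells, against 24.5 ± 2.8 TPM in control cells (APT1wt against control 0.37 ± 0.07; edgeR, adjusted p = 0.0024). The phospholipase gene PLD2 was called higher in both, at 0.39 ± 0.12 in shAPT1 cells (adjusted p = 0.032) and 0.42 ± 0.12 in APT1wt cells (adjusted p = 0.021), while its TPM values overlapped with those of control cells.

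Kinases linked to caveolins or cavins, and the actin anchor FLNA, formed a list of 7, all tested. In shAPT1 cells 2 were higher and 3 lower than in control cells (median -0.26), and in APT1wt cells 2 were higher and 1 lower (median 0.08). Of all genes, 12.8% were higher and 11.6% lower in shAPT1 cells, and 11.8% and 11.6% in APT1wt cells. SRC, which phosphorylates CAV1 on tyrosine, averaged 16.7 ± 2.7 TPM in shAPT1 cells and 24.1 ± 5.4 TPM in APT1wt cells, against 23.9 ± 4.9 TPM in control cells (shAPT1 against control -0.58 ± 0.08; edgeR, adjusted p = 2.0e-04). ABL1, another tyrosine kinase of CAV1, fell by 0.44 ± 0.07 on the log2 scale in shAPT1 cells (adjusted p = 3.2e-04) and by 0.25 ± 0.07 in APT1wt cells (adjusted p = 0.016). Its TPM values overlapped with control in both, at 39.1 ± 2.0 TPM in shAPT1 and 42.0 ± 1.9 TPM in APT1wt cells, against 43.5 ± 2.7 TPM in control cells. PRKCA, the protein kinase C that binds SDPR, averaged 35.2 ± 5.0 TPM in shAPT1 cells and 35.9 ± 1.4 TPM in APT1wt cells, against 27.4 ± 1.8 TPM in control cells (APT1wt against control 0.45 ± 0.08; adjusted p = 7.7e-04).

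The flotillins belong to the SPFH domain family, whose other members are stomatin, prohibitins and erlins. None of these was called higher against control. Of all genes, 12.8% were higher in shAPT1 and 11.8% in APT1wt cells, so 0 of 7 is close to those shares. Of 7 tested, 0 were higher and 4 lower in shAPT1 than in control cells, with a median log2 fold change of -0.22. In APT1wt cells 0 were higher and 1 lower (median -0.0026). The share of lower genes over all genes was 11.6% in both comparisons. The counts of 0 higher were also 0 at an unadjusted edgeR p of 0.05 and with DESeq2 and limma-voom. STOM, stomatin of the plasma membrane, averaged 12.3 ± 1.7 TPM in shAPT1 cells and 3.95 ± 0.34 TPM in APT1wt cells, against 17.3 ± 2.2 TPM in control cells. Its log2 fold change was -0.56 ± 0.10 in shAPT1 cells (edgeR, adjusted p = 9.7e-04) and -2.11 ± 0.11 in APT1wt cells (adjusted p = 2.5e-08), and none of the 3 groups overlapped. STOM was therefore higher in shAPT1 than in APT1wt cells, by 1.54 ± 0.11 (adjusted p = 5.2e-07). STOML2, a mitochondrial relative, averaged 168 ± 8.6 TPM in shAPT1 cells and 201 ± 1.9 TPM in APT1wt cells, against 199 ± 6.7 TPM in control cells (shAPT1 against control -0.33 ± 0.06; adjusted p = 0.0016).

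Genes of other routes of endocytosis were called in both directions. Of 32 tested genes of the clathrin route, 8 were higher and 6 lower in shAPT1 than in control cells (median -0.02), and 2 were higher and 4 lower in APT1wt than in control cells (median 0.02). The shares of all genes were 12.8% and 11.6% in shAPT1 cells, and 11.8% and 11.6% in APT1wt cells. AMPH, an amphiphysin that binds clathrin and dynamin, measured 2.64, 2.94 and 2.62 TPM in the shAPT1 libraries, and at most 0.468 TPM in APT1wt and 0.0779 TPM in control libraries (shAPT1 against control, edgeR, adjusted p = 2.2e-07). DAB2, an adaptor for receptor uptake, was called higher than control in both shAPT1 and APT1wt cells. It averaged 15.4 ± 0.93 TPM in shAPT1 cells and 15.5 ± 0.61 TPM in APT1wt cells, against 12.2 ± 1.9 TPM in control cells. For APT1wt against control the log2 fold change was 0.35 ± 0.10 (edgeR, adjusted p = 0.016). Of 9 genes of clathrin-independent carriers, 0 were called in shAPT1 against control cells by edgeR, DESeq2 or limma-voom (1 lower at an unadjusted edgeR p of 0.05). By edgeR 24.4% of all genes were called there. In APT1wt cells 2 were higher and 1 lower than in control cells: ARHGAP26 (GRAF1), a BAR protein of this route, averaged 20.9 ± 3.5 TPM in shAPT1 cells and 29.1 ± 2.1 TPM in APT1wt cells, against 20.6 ± 2.5 TPM in control cells (APT1wt against control 0.48 ± 0.07; edgeR, adjusted p = 2.2e-04).

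The genes whose log2 CPM followed CAV1, PTRF or FLOT1 most closely over the 9 libraries were found among 12773 tested protein-coding genes, as a description without a test. All points share the 3 groups and the depth of their libraries. For CAV1 the 5 closest included ANXA2 (r = 0.980), APP (0.976), COL5A1 (0.971) and PDLIM1 (0.970). ANXA2, a membrane-binding annexin, averaged 1914 ± 32 TPM in shAPT1 cells and 1801 ± 56 TPM in APT1wt cells, against 1574 ± 53 TPM in control cells. CAV2 had r = 0.811 with CAV1 and ranked 549, close to PTRF (0.810, rank 554) and PACSIN2 (0.817, rank 512).

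For PTRF the 5 closest included FADS2 (r = 0.965), DCAF4 (0.965), NDRG1 (0.958) and TIMP4 (0.957). For FLOT1 they were TIMP2 (0.979), TRAPPC4 (0.978), PBXIP1 (0.976), CUL9 (0.965) and PSAP (0.959). FLOT2 ranked 12 for FLOT1, with r = 0.947, the highest rank that any of the 10 genes had for CAV1, PTRF or FLOT1. TIMP2, an inhibitor of metalloproteinases, averaged 238 ± 29 TPM in shAPT1 cells and 185 ± 7.9 TPM in APT1wt cells, against 187 ± 4.8 TPM in control cells.

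Markers of other cell types that are rich in caveolae were low or uneven. The 5 adipocyte markers stayed under 1 TPM in every library, and CIDEC was at 0 in all 9. Of the 7 endothelial markers, CDH5, VWF and TEK reached at most 0.252 TPM. The endothelial sum was 59.3 to 77.4 TPM in shAPT1 libraries, 102 to 106 TPM in APT1wt libraries and 41.3 to 50.7 TPM in control libraries. Nearly all of it was ESAM, at 37.1 to 101 TPM. ESAM was called higher in shAPT1 cells, by 0.44 ± 0.08 (edgeR, adjusted p = 0.0017), and in APT1wt cells, by 1.23 ± 0.08 (adjusted p = 2.2e-07). TIE1 averaged 3.13 ± 0.55 TPM in shAPT1 cells and 1.98 ± 0.66 TPM in APT1wt cells, against 1.01 ± 0.61 TPM in control cells, and was called higher in shAPT1 than in control cells (2.08 ± 0.26; adjusted p = 6.0e-05). Smooth muscle markers summed to 60.0 to 68.7 TPM in shAPT1 libraries and 60.4 to 65.9 TPM in APT1wt libraries, against 80.7 to 88.0 TPM in control libraries, mostly SMTN, while DES was at 0 in 8 libraries. Fibroblast markers summed to 13.3 to 22.7 TPM in shAPT1 libraries and 20.1 to 24.7 TPM in APT1wt libraries, against 17.9 to 20.7 TPM in control libraries, with DCN and LUM at most 0.424 TPM. Of the 4 fibroblast markers tested, COL1A1, COL1A2 and PDGFRB were higher and FBLN1 lower in shAPT1 than in control cells, and COL1A1 and PDGFRB were higher in APT1wt than in control cells. By edgeR 24.4% and 23.4% of all genes were called in these comparisons. PDGFRB averaged 5.50 ± 2.9 TPM in shAPT1 cells and 4.14 ± 0.74 TPM in APT1wt cells, against 2.78 ± 0.52 TPM in control cells. Its shAPT1 libraries, at 2.87, 8.67 and 4.97 TPM, overlapped with the control libraries, at 2.96, 2.20 and 3.20 TPM. Leukocyte markers summed to 232 to 264 TPM in shAPT1 libraries and 257 to 311 TPM in APT1wt libraries, against 366 to 475 TPM in control libraries, mostly CD74, while PTPRC reached at most 0.265 TPM. LCP1 of this list went against the sum, at 41.8 ± 5.7 TPM in shAPT1 cells and 61.9 ± 8.9 TPM in APT1wt cells, against 10.1 ± 0.69 TPM in control cells (1.94 ± 0.09, adjusted p = 7.2e-09 in shAPT1 cells; 2.56 ± 0.09, adjusted p = 9.9e-10 in APT1wt cells; edgeR). The part of any of these markers in the caveola gene differences was not tested.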

How the data were processed

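RNA from 9 libraries (3 each of shAPT1, APT1wt and control) was sequenced by the authors. Per the submitters' processing notes they used FastQC, Salmon, DESeq2 and GRCh38.p10; versions, strand setting and sequencing batches are not given in the sources used here. The deposited Salmon files give estimated counts and TPM per transcript with its length, per the file headers. A deposited table of the series holds scaled gene values, a signal on a linear scale whose scaling step is not stated, and it served only as an alternative on log2(value + 1).

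Estimated counts and TPM were summed per gene, and counts were rounded. Genes passing filterByExpr were normalised by TMM and tested with edgeR 4.0.16 (quasi-likelihood; limma 3.58.1, R 4.3.3) over all 9 libraries with group as the only term, and p-values were Benjamini-Hochberg adjusted over all 15233 genes; transcripts were handled alike. Tables and figures were made with Python 3.11.15, pandas 2.3.3, numpy 2.4.6 and matplotlib 3.10.9. The steps were tested on simulated data. Alternatives were DESeq2 1.42.0, limma-voom, library totals, other filters, a transcript length offset, only the groups compared, a correction by 50 neighbouring genes on each side, a replicate block, and leaving out each library. Positions are those of GENCODE 29, and promoters are from RefSeq (GRCh38.p14).

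The genes named are every member, LYPLA1, up to 2 called genes per list and comparison with the largest change and at least 1 TPM, the 2 nearest genes on each side of CAV1 and CAV2, and the 5 genes most alike to CAV1, PTRF and FLOT1. Not every gene the rule allows is described. Some genes that the rule names are not reported here. The members and lists were chosen with earlier results of these data known.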

Additional observations from a re-analysis of the deposited data

How the results depend on the processing

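Against control, CAV1, CAV2 and SDPR in shAPT1 cells and CAV1 and CAV2 in APT1wt cells kept their direction and call under every alternative run. Of 200 alternative values per comparison for the 10 genes, 189 kept direction and side of the threshold for shAPT1 against control. The number was 188 for APT1wt against control and 183 between shAPT1 and APT1wt. Among the rest, shAPT1 against APT1wt became called for EHD2 without shAPT1 replicate 1 (0.31, against 0.17) and for PACSIN2 with the neighbour correction (0.29, against 0.09), and the cause was not tested. Leaving out each library in turn gave 5 to 8, 3 to 5 and 3 to 6 called members in these comparisons, 2616 to 4096, 2298 to 4825 and 2573 to 4104 called genes, and 1 to 5, 0 to 1 and 1 to 2 called transcripts of members. With only the groups compared, 5 members were called in APT1wt against control. A transcript length offset called 2310, 2230 and 2373 of all genes, and a fit on the deposited scaled values called 2326, 2236 and 2357. The neighbour correction called 2335 in APT1wt against control. Without the filter on low counts, 2 and 1 member transcripts were called in shAPT1 and APT1wt against control.

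Signs turned only for values that were not called. In shAPT1 against control these were PRKCDBP (0.02 without shAPT1 replicate 1; -0.23 to 0.02 over all left-out libraries) and EHD2 (-0.03 without shAPT1 replicate 3; -0.03 to 0.20). In APT1wt against control they were PRKCDBP (0.08 without control replicate 1; -0.12 to 0.08) and FLOT1 (-0.0012 with library totals, -0.0031 without control replicate 3, and up to 0.05 over left-out libraries and 0.06 over all alternatives). In shAPT1 against APT1wt they were CAV1 (0.02 with library totals, 0.01 without shAPT1 replicate 1 or APT1wt replicate 3, and down to -0.11 over left-out libraries and -0.18 over all alternatives), PTRF (0.05, 0.08 and 0.02 in the same fits, and down to -0.07 over all alternatives) and PRKCDBP (0.05 without shAPT1 replicate 1, and down to -0.20 over all alternatives).

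The replicate numbers gave no clear pairing of the libraries. Deviations of same-numbered libraries correlated at -0.051 to 0.103, and 2 of 9 libraries correlated best with their own number in both other groups. With a replicate block the members called were 6, 3 and 5 in the 3 comparisons, all genes called 3754, 3625 and 3872, and member transcripts called 2, 0 and 1. Depth differed by library (12381931 to 18667383 estimated reads), and 3 libraries a group limit the precision of each fold change.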
